A study of Mus musculus with 4 samples.

Results

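The 8 genes described here encode the ligands, receptors and decoy receptor through which ligament and follicle cells direct osteoclasts and tooth eruption. They are Tnfsf11 (RANKL), Tnfrsf11a (RANK), Tnfrsf11b (osteoprotegerin), Csf1, Il34, Csf1r, Pthlh (PTHrP) and Pth1r. They were taken by name from 22911 genes on the arrays, with earlier results of these data known, and each was represented by its brightest probe. RNA was taken from the PDL of mice, short for periodontal ligament, which anchors a tooth root in its socket. Donor mice were either wild type (WT) or lacked Mkx (Mkx-KO), the gene of the tendon and ligament transcription factor Mohawk, and were 10 or 4 weeks old. Each of the 4 groups had 1 single-colour array, so a difference between groups has no replicate check, and neither the number of mice behind an array nor the design of the knockout allele is given in the sources used here.

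RANKL, a membrane protein of the TNF family made by osteoblasts, osteocytes, follicle and ligament cells and lymphocytes, binds RANK on osteoclast precursors and drives them to become osteoclasts. Osteoprotegerin is a secreted decoy that captures RANKL before it reaches RANK. CSF1 and IL-34 are separate ligands of the receptor CSF1R, which keeps macrophages and osteoclast precursors alive. PTHrP acts through PTH1R on cells of the bone and tooth lineages, where it can raise RANKL, and it is needed for teeth to erupt through the jaw.

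Levels are log2 values of the scanner signal less the array's own 75th percentile, and the error printed with a difference is the technical error that the scanner software assigns to the spots, about 0.20 log2 units for a pair of arrays. It does not cover variation between mice. All 8 genes were well above background on all 4 arrays, over 14 probes, and 5 of the genes had more than 1 probe. In WT the Mkx signal was 553 at 10 weeks and 563 at 4 weeks, and in Mkx-KO it was 108 and 193. The difference of Mkx-KO minus WT was -2.10 log2 units at 10 weeks and -1.65 at 4 weeks, with a technical error of 0.21 for each. Whether the Mkx probe lies in the deleted part of the gene is not given in the sources used here. The ligament fibroblast markers Postn, Aspn, Scx, Tnmd, Dcn and Fmod were well above background on every array. Scaled levels correlated between arrays with Pearson's r of 0.957 to 0.990 across 15504 genes, which are not independent replicates. The Mkx-KO array at 4 weeks stood apart in its low signal for olfactory neuron markers (summed signal 0.748 times the array's 75th percentile, against 38.1 to 46.1 on the others) and skeletal muscle markers (19.3 against 51.3 to 89.3). The neuron genes Gad1, Slc32a1 and Syt1 and the enamel genes Amelx and Enam were lower there too than in WT of that age. Syt1 had a signal of 45.2 against 1003 and Amelx 97.5 against 9169, and Enam was not well above background. The other odontoblast and ameloblast markers, Ambn, Odam and Dspp, were not lower there, at 0.13, 0.85 and 0.17 for Mkx-KO minus WT. The WT array at 10 weeks was low for Gad1 and Slc32a1 too, at signals of 28.3 and 63.3, against 242 and 571 in WT at 4 weeks.

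Across the genotype comparison at 10 weeks, RANKL and its receptor RANK had the highest positive differences of the 8 genes and Il34 the lowest. No member differed by 2-fold, against 2.41% of all 16457 genes measured on both arrays, and 2 members differed by at least 1.5-fold, against 8.92%. Both were higher in Mkx-KO, as were 4.53% of all genes. At 4 weeks RANKL was again the highest and Il34 again the lowest. None of the 8 reached 2-fold there, against 3.78% of 15686 genes, and only Il34 reached 1.5-fold, against 9.86%. It was lower in Mkx-KO, as were 6.9% of all genes. The median difference of the 8 genes was 0.05 log2 units at 10 weeks and 0.09 at 4 weeks, beside 0.01 and 0.06 over all genes measured.

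**Figure D1:**
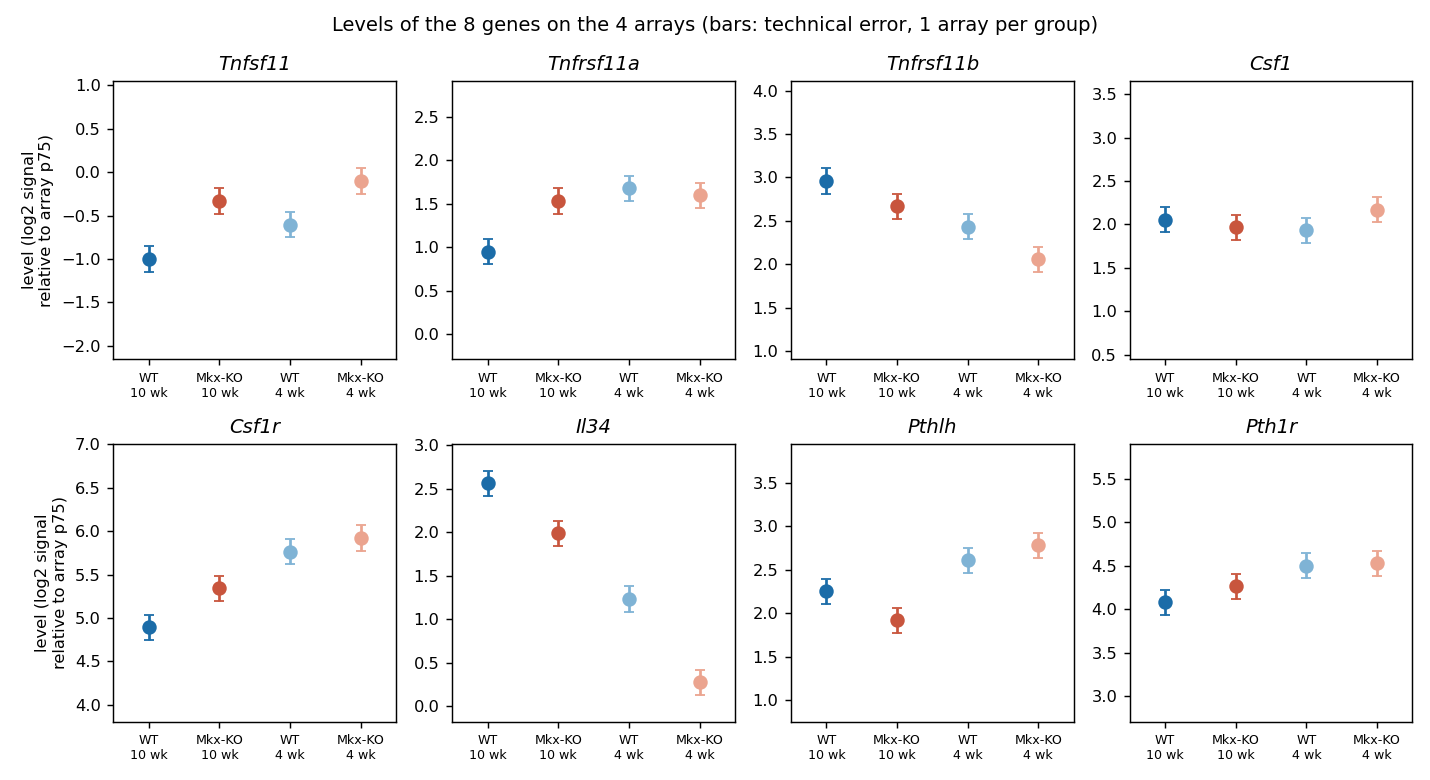
Scaled log2 levels of each gene on the 4 arrays, with the technical error of each spot as bars; each panel spans the same number of log2 units around its gene. Il34 has the widest range, 2.29 log2 units, and Csf1 the narrowest, 0.24.

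The ligand RANKL is shown first. The 250 bases before the start of Tnfsf11, on the minus strand of GRCm38.p6 at chr14:78308044-78308293 and credited to RefSeq, are printed because this gene had the largest positive genotype difference of the 8 at both ages. Capitals mark the letters TATAA, which begin 30 bases before the start.
Tnfsf11: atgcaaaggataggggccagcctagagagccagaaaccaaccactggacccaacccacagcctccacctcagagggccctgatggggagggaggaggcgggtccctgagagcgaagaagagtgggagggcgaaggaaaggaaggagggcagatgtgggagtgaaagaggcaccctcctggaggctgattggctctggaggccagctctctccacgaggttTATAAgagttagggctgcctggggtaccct
TATAA was searched on both strands, and the match on the other strand overlaps this one. Of 32851 starts in the table, 22.8% held it in the same window. Of the 5 members that the table lists, with 7 starts, Tnfsf11 was the one with a match. The window of Tnfsf11 held 4 CG pairs, beside a median of 6 over all starts, 10 for Csf1, 26 for Pthlh and 31 for Tnfrsf11a. The 3 starts of Pth1r held 3, 16 and 22. The arrays measured RNA and not binding at these sequences.

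In WT the Tnfsf11 signal was 154 at 10 weeks and 175 at 4 weeks, and in Mkx-KO it was 206 and 267. Both knockout arrays were therefore above both WT arrays. After scaling, Tnfsf11 was 0.67 log2 units (1.59-fold) higher in Mkx-KO at 10 weeks and 0.50 (1.42-fold) higher at 4 weeks, with technical errors of 0.21. Its second probe gave 0.65 and 0.37, from signals of 78.5 and 78.4 in WT and 103 and 109 in Mkx-KO. The difference at 10 weeks exceeded 2 technical errors on both probes, and that at 4 weeks did so on the brighter probe, at 2.45 errors, but not on the second, at 1.73. In order of level the arrays ran Mkx-KO at 4 weeks, Mkx-KO at 10 weeks, WT at 4 weeks and WT at 10 weeks. No neighbouring pair in that order differed by more than 2 technical errors, and the whole range was 0.90 log2 units. Age differences were smaller, at -0.40 for 10 minus 4 weeks in WT and -0.23 in Mkx-KO. The second probe gave -0.21 and 0.07 and the authors' own scaling gave -0.04 and 0.06, so the direction with age in Mkx-KO depended on the probe and on the scaling.

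Osteoprotegerin had its lower level in the knockout at each age, where RANKL had its higher. At 10 weeks the Tnfrsf11b signal, from 1 probe, was 2402 in WT and 1651 in Mkx-KO, and at 4 weeks it was 1442 and 1195. Both 10-week arrays were above both 4-week arrays, and WT was above Mkx-KO at each age. The scaled difference between genotypes was -0.29 log2 units at 10 weeks and -0.37 at 4 weeks, each within 2 technical errors of 0.20. With age it was higher at 10 than at 4 weeks by 0.52 in WT and 0.61 in Mkx-KO, each beyond 2 technical errors. Of its neighbouring levels none was apart by more than 2 technical errors.

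Set against osteoprotegerin on the same arrays, RANKL changed unequally. The Tnfsf11 difference minus the Tnfrsf11b difference between genotypes was 0.96 log2 units at 10 weeks (technical error 0.29), a 1.94-fold shift of the ligand relative to its decoy, and 0.88 (technical error 0.29), or 1.84-fold, at 4 weeks. Over the probes of Tnfsf11 it ran from 0.94 to 0.96 and from 0.74 to 0.88. For 10 minus 4 weeks it was -0.92 in WT and -0.84 in Mkx-KO. The sign of all 4 values held with normexp background, quantile normalization and the mean over probes. Median centring and the authors' scaling shift both genes of an array alike, so they could not change these values. These values compare changes, not the amounts of the transcripts, since probes differ in brightness.

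RANK, the receptor on osteoclast precursors, was low on a single array. In WT the Tnfrsf11a signal was 595 at 10 weeks and 854 at 4 weeks, and in Mkx-KO it was 750 and 867. In scaled level WT at 10 weeks was lowest, with a gap of 0.59 log2 units to the next array, beyond 2 technical errors, and the gaps between the other 3 arrays were 0.06 and 0.08. Tnfrsf11a was thus 0.59 (technical error 0.20) higher in Mkx-KO at 10 weeks and -0.08 from WT at 4 weeks. The second probe gave 0.53 and -0.29. With age the difference was -0.73 in WT and -0.06 in Mkx-KO, and the second probe gave -0.86 and -0.05. In Mkx-KO the authors' scaling gave 0.23 and quantile normalization 0.08. The genotype difference of Tnfsf11 minus that of Tnfrsf11a was 0.08 at 10 weeks and 0.59 at 4 weeks (technical errors 0.29), the latter just beyond 2 technical errors. Over the probes of both genes the value at 4 weeks ran from 0.45 to 0.79.

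**Figure D2:**
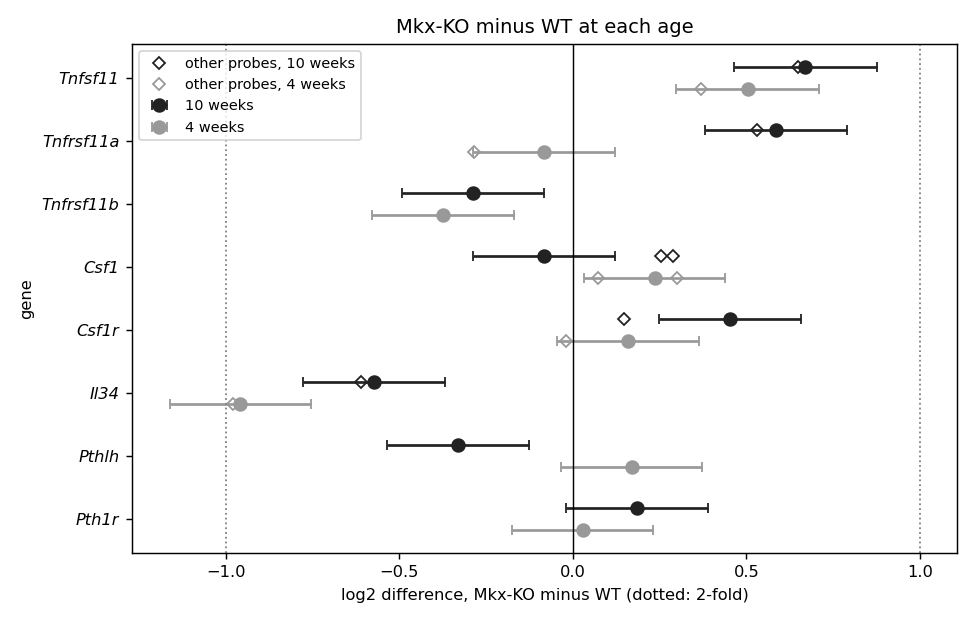
Log2 difference of Mkx-KO minus WT for each gene at 10 weeks (dark) and 4 weeks (grey), with bars for the technical error, open diamonds for the other probes and dotted lines at 2-fold. Tnfsf11 lies right of 0 and Il34 and Tnfrsf11b lie left of 0 at both ages, and no point of the 8 brightest probes passes 2-fold.

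IL-34 varied most of the 8. At 10 weeks the Il34 signal was 1827 in WT and 1031 in Mkx-KO, and at 4 weeks it was 626 and 347. Both 10-week arrays were above both 4-week arrays, and WT was above Mkx-KO at each age. From the highest level down, the gaps between neighbouring arrays were 0.57, 0.76 and 0.96 log2 units, and each exceeded 2 technical errors of 0.20. The whole range was 2.29 log2 units, or 4.89-fold. Il34 was lower in Mkx-KO by 1.49-fold at 10 weeks and 1.94-fold at 4 weeks, both under the 2-fold threshold. The second probe placed the arrays in the same order, with signals of 230 for WT and 127 for Mkx-KO at the later age and 97.6 and 53.2 at the earlier, and gave genotype differences of -0.61 and -0.98.

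With age Il34 was the only member past 2-fold. It was 2.52-fold higher at 10 than at 4 weeks in WT, a difference of 1.33 log2 units (technical error 0.20), and 3.29-fold higher in Mkx-KO, a difference of 1.72 (technical error 0.20). The second probe gave 2.04-fold and 2.63-fold. Of all genes, 8.84% of 16102 differed by 2-fold with age in WT and 10.1% of 15669 in Mkx-KO, and 5.01% and 6.25% were higher by that much at 10 weeks. With 8 members, 1 past 2-fold is near that background and is not a result about the group. At 1.5-fold, 3 members differed with age in each genotype, beside 23.3% and 27.4% of all genes. The genotype and the age differences come from the same 4 arrays and are not separate measurements.

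The other ligand of CSF1R stayed near level. In WT the Csf1 signal was 1282 at 10 weeks and 1019 at 4 weeks, and in Mkx-KO it was 1016 and 1289. The knockout array was the lower at 10 weeks and the higher at 4 weeks. The whole range of scaled levels was 0.24 log2 units, and no neighbouring pair was apart by 2 technical errors. The genotype difference was -0.08 at 10 weeks and 0.24 at 4 weeks (technical errors 0.20). Of the 3 probes of Csf1, the dimmer 2 match another transcript accession than the brightest, and they gave 0.29 and 0.25 at 10 weeks, so the direction at 10 weeks depended on the probe. At 4 weeks they gave 0.30 and 0.07. With age Csf1 had 0.12 in WT and -0.20 in Mkx-KO, the latter 0.09 under the authors' scaling and 0.02 with the mean over probes. Csf1 minus Il34, as a difference of changes between genotypes, was 0.49 at 10 weeks and 1.19 at 4 weeks (technical errors 0.29), and for age it was -1.21 in WT and -1.92 in Mkx-KO. The 2 ligands of 1 receptor thus differed from each other in how they changed with age in both genotypes and with genotype at 4 weeks, beyond 2 technical errors. At 10 weeks the value was 1.70 errors, but over the probe pairs it ran from 0.49 to 0.90, so there it depended on the probe.

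Csf1r, the receptor of both, was brighter at 4 weeks on its brighter probe. At 10 weeks its signal was 9164 in WT and 10527 in Mkx-KO, and at 4 weeks it was 14463 and 17362. Both 4-week arrays were above both 10-week arrays. The scaled difference of 10 minus 4 weeks was -0.87 log2 units in WT and -0.58 in Mkx-KO, and that of Mkx-KO minus WT was 0.45 at 10 weeks and 0.16 at 4 weeks (technical errors 0.20). The 4-week arrays did not differ from each other beyond 2 technical errors. Mkx-KO came next and WT last among the 10-week arrays, with gaps of 0.42 and 0.45. The second Csf1r probe, of the same accession, was nearly flat, with signals of 357, 332, 328 and 349 and differences of 0.15, -0.02, -0.09 and 0.07 for genotype at 10 weeks, genotype at 4 weeks, age in WT and age in Mkx-KO. The Csf1r pattern thus rests on 1 of 2 probes.

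PTHrP and its receptor showed small differences between genotypes. In WT the Pthlh signal, from 1 probe, was 1470 at 10 weeks and 1628 at 4 weeks, and in Mkx-KO it was 982 and 1968. The knockout array was thus the lowest of the 4 at 10 weeks and the highest at 4 weeks. The scaled differences of -0.33 and 0.17 were both within 2 technical errors of 0.20. For 10 minus 4 weeks Pthlh had -0.36 in WT and -0.86 (1.81-fold lower) in Mkx-KO, the latter beyond 2 technical errors. Under the authors' scaling these were -0.003 and -0.57. At 10 weeks the Pth1r signal, also from 1 probe, was 5225 in WT and 4984 in Mkx-KO, and at 4 weeks it was 6031 and 6610. Its scaled difference between genotypes was 0.18 at 10 weeks and 0.03 at 4 weeks (-0.04 with quantile normalization), and with age it was -0.42 in WT and -0.26 in Mkx-KO (-0.06 and 0.03 under the authors' scaling). Its whole range was 0.45 log2 units. The ligand minus receptor difference of changes was -0.52 and 0.14 between genotypes at 10 and 4 weeks, and 0.06 in WT and -0.60 in Mkx-KO with age (technical errors 0.29), of which the last exceeded 2 technical errors.

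**Figure D3:**
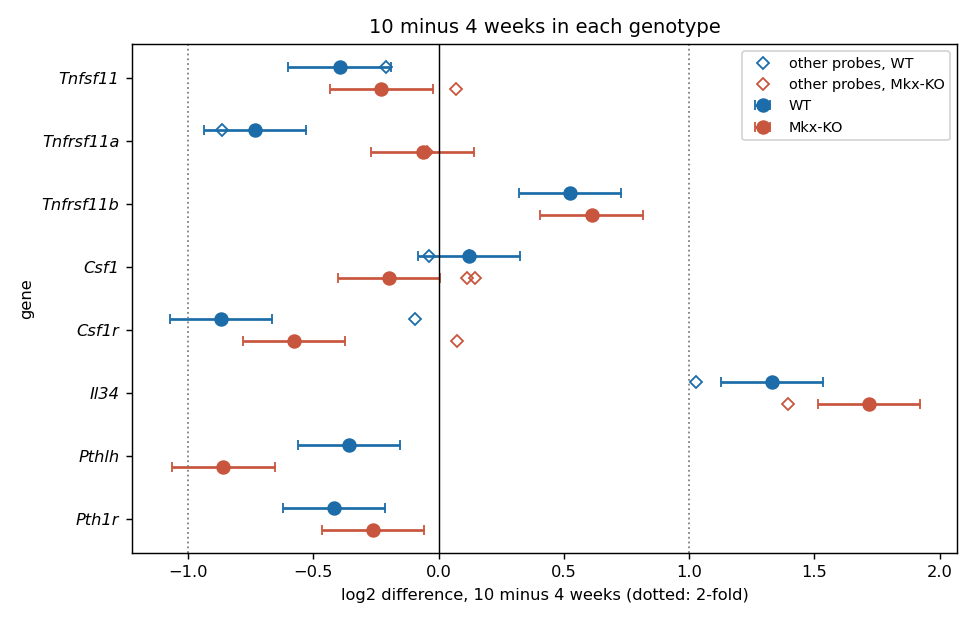
Log2 difference of 10 minus 4 weeks for each gene in WT (blue) and Mkx-KO (red), with bars for the technical error, open diamonds for the other probes and dotted lines at 2-fold. Il34 lies beyond 2-fold in both genotypes, Tnfrsf11b lies right of 0 in both, and the Csf1r diamonds lie near 0 while its brightest probe lies at -0.87 and -0.58.

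A limma model over the 4 arrays, with genotype and age as terms and 1 residual degree of freedom, called none of 16795 genes for genotype or for age after Benjamini-Hochberg adjustment, which is 0.0% for each. With 1 residual degree of freedom, a count of 0 does not show that genes did not differ by the amounts measured here. The residual is the disagreement of the genotype differences between the 2 ages. The standard errors (SE) and p-values of this model therefore do not measure variation between mice. At an unadjusted p under 0.05 the model had 455 genes for genotype and 4074 for age. For genotype that share of the 16795 genes was below the 0.05 that would pass if p-values were uniform. For genotype, limma gave Tnfsf11 a coefficient of 0.59 (SE 0.13, unadjusted p = 0.026, adjusted p = 0.9996) and Il34 one of -0.77 (SE 0.17, unadjusted p = 0.024, adjusted p = 0.9996). The largest age coefficient of the 8 in limma was that of Il34, at 1.52 (SE 0.17, unadjusted p = 0.0039, adjusted p = 0.18), and those of Tnfrsf11b and Csf1r, at 0.57 and -0.72, had adjusted p = 0.18 each.

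Downstream of RANK, the genes that osteoclasts make had higher levels in Mkx-KO at 10 weeks. All 14 listed osteoclast products had positive differences there under all 6 scalings and probe choices, beside 51.5% of all genes in the main setting, and 6 of 14 reached 2-fold (3 of 14 with normexp background), as did 1.04% of all genes in that direction. Their median was 0.93 log2 units against 0.01 over all genes. Among them were Calcr, the calcitonin receptor, at 1.27, Slc9b2, a sodium-proton exchanger, at 1.15, Dcstamp, needed for osteoclast fusion, at 1.07, and Car2, carbonic anhydrase, at 0.92 (technical errors 0.20 to 0.21). The second probe of Calcr gave 0.25. At 4 weeks the same 14 genes had a median of 0.00, with 7 positive and 7 negative differences and none at 1.5-fold. For 10 minus 4 weeks in WT all 14 were negative (12 of 14 under the authors' scaling), 7 of them past 2-fold beside 3.83% of all genes, with a median of -0.99. This comparison and that of genotype at 10 weeks share the WT array at 10 weeks and are not separate measurements. In Mkx-KO the median was -0.28, or 0.02 under the authors' scaling, with none past 2-fold (1 higher under the authors' scaling or quantile normalization).

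The genes that carry the RANK signal inside the cell or regulate osteoclast formation spread around 0. Of 22 such genes the median was 0.05 at 10 weeks and 0.14 at 4 weeks, beside 0.01 and 0.06 over all genes. At 10 weeks 1 gene reached 2-fold and at 4 weeks none did, beside 2.41% and 3.78% of all genes. That gene was Spi1, which encodes the myeloid transcription factor PU.1, at 1.22 at 10 weeks (technical error 0.28) and -0.17 at 4 weeks. Its signal was low, 20.9 in WT and 41.0 in Mkx-KO at the later age, and with normexp background its difference was 0.59, under 2-fold. Oscar and Tyrobp, a co-receptor and an adaptor that assist RANK, had 0.74 and 0.55 at 10 weeks and -0.10 and -0.27 at 4 weeks. Nfkb2, a subunit of the alternative NF-kB path, had -0.07 and 0.55. Traf6, the adaptor that binds RANK, had -0.32 and 0.20, and 0.04 at 10 weeks on its second probe. Nfatc1, the master regulator of osteoclast genes, had 0.14 and 0.16.

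Inducers, sheddases and rivals of RANKL were mixed. Of 26 listed genes 23 were measured on both arrays at 10 weeks and 22 at 4 weeks, with medians of -0.08 and 0.05. No measured gene was at 2-fold (1 lower at 10 weeks under quantile normalization), beside 2.41% and 3.78% of all genes. Ifng, interferon gamma, could not be measured on the Mkx-KO array at 10 weeks. Its level there was lower by at least 3.28-fold than in WT, where its signal was low, at 39.2. At 4 weeks Ifng was well above background in Mkx-KO, at a signal of 14.7, and not in WT. It was at least 1.18-fold higher in Mkx-KO there, so its direction differed between the ages. At 4 weeks Il1b, the cytokine interleukin-1 beta, was 0.84 higher in Mkx-KO, Ptgs2, the inducible cyclooxygenase, was 0.72 higher and Ptger4, a receptor for the prostaglandin that depends on it, had -0.79. At 10 weeks they had -0.07, 0.34 and -0.25. Sema3a, a semaphorin that restrains osteoclasts, had -0.32 and -0.46. With age Ptger4 was 1.80 higher at 10 weeks in WT and 2.34 higher in Mkx-KO. It was the 1 gene of 22 past 2-fold upward in each genotype, beside 5.01% of all genes in WT and 6.25% in Mkx-KO. Past 2-fold downward were 2 in WT, beside 3.83% of all genes, and 4 in Mkx-KO, beside 601 of 15669 genes. Under the authors' scaling or normexp background the downward counts were 0 and 3. The Tnfsf11 differences with age were -0.40 and -0.23.

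Among 15 partners of CSF1R and other myeloid growth factors, 14 were measured at 10 weeks and 13 at 4 weeks, with medians of 0.10 and -0.03. Ptprz1, a receptor for IL-34, had 0.19 at 10 weeks and -0.63 at 4 weeks. The other named members, Csf2ra, Kit and Flt3, had 0.53, 0.29 and 0.16 at 10 weeks and 0.13, 0.33 and -0.43 at 4 weeks. Csf3, which encodes the granulocyte growth factor G-CSF, was the gene of this list past 2-fold at 10 weeks, beside 2.41% of all genes. Csf3 had -1.29, but -0.32 with normexp background, and was not well above background at 4 weeks on either array.

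For PTH1R, 20 of 22 ligand, G protein and effector genes were measured in each comparison, with genotype medians of 0.03 at 10 weeks and 0.06 at 4 weeks. None reached 2-fold between genotypes, beside 2.41% and 3.78% of all genes. Crem and Nr4a1, transcription factors induced by cyclic AMP, had 0.68 and 0.56 at 4 weeks and 0.13 and 0.26 at 10 weeks. The 4 probes of Crem ran from -0.31 to 0.68 at 4 weeks, so its direction there depended on the probe. Arrb2, an arrestin, had -0.50 at 4 weeks and 0.34 at 10 weeks, and Slc9a3r1, a scaffold that binds PTH1R, had -0.04 and -0.51. In age comparisons the median of this list was -0.21 in WT and -0.29 in Mkx-KO, beside -0.10 and -0.15 over all genes. Under the authors' scaling it was 0.15 and 0.01, beside 0.26 and 0.14.

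Other genes of the dental follicle and of eruption had a median of -0.03 over 17 genes at 10 weeks and 0.28 over 16 at 4 weeks, where 13 of 16 were positive beside 58.8% of all genes. The gene left out at 4 weeks was Egf, epidermal growth factor, whose spot on the Mkx-KO array did not clear background; its level there lay at least 3.35-fold below WT. Msx2 and Gli1, targets of BMP and hedgehog signals, had 0.80 and 0.66 at 4 weeks, higher in the knockout, and 0.11 and 0.09 at 10 weeks. Ccl2, a chemokine that draws monocytes to the follicle, had -1.31 at 10 weeks and 0.33 at 4 weeks. Sfrp1, a Wnt antagonist, had -0.45 and 0.52. For 10 minus 4 weeks in Mkx-KO 15 of 16 of these genes were negative, 9 of 16 under the authors' scaling, with Msx2 at -1.89. Over all genes 37.7% were positive, and Egf, again not among the 16, was at least 20.4-fold higher at 10 weeks. Their median was -0.33 against -0.15 over all genes, and in WT it was 0.04 against -0.10.

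**Figure D4:**
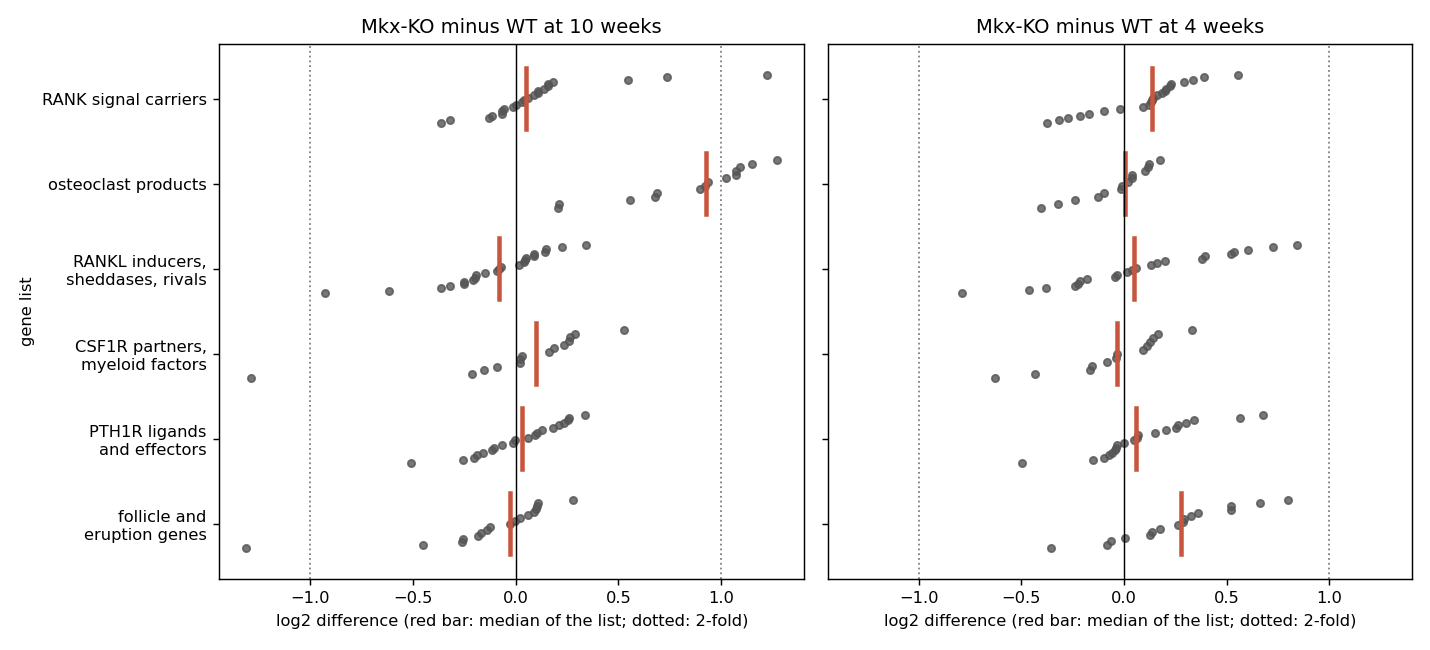
Log2 difference of Mkx-KO minus WT at 10 weeks (left) and 4 weeks (right) for each measured gene of 6 lists of pathway genes, with a red bar at the list's median and dotted lines at 2-fold. At 10 weeks the osteoclast products lie right of 0 with a median of 0.93, and at 4 weeks their median is 0.00.

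Markers of other cell types moved with some of these genes. In bulk tissue fewer cells of a type and less RNA per cell cannot be told apart. The summed signal of 5 osteoclast markers, all well above background on every array, was 449 times the array's 75th percentile in WT and 846 in Mkx-KO at the later age, and 1047 and 1060 at the earlier. These 5 genes are also among the osteoclast products above, with Acp5 and Ctsk the brightest, so their sum is not a separate observation. WT at 10 weeks was the low array, as it was for Tnfrsf11a and Csf1r. Summed macrophage markers, 9 of 9 well above background, ran between 61.8 and 71.4 over the 4 arrays. Itgam was the brightest of them, and Cd68 differed from the sum, at 0.60 for genotype at 10 weeks and -1.16 for age in WT. The 4 B cell markers, all well above background on every array, summed in WT to 3.88 at 10 weeks and 5.80 at 4 weeks, and in Mkx-KO to 8.65 and 11.9, so the sum was higher in the knockout at both ages, as Tnfsf11 was. Of the 4, Cd79a, Cd79b and Ms4a1 had differences of 0.94 to 1.56 at both ages and the brightest probe of Cd22 had 0.16 and -0.08, with up to 1.39 at 10 weeks on its other probes. T cell markers, of which Cd8a was not well above background on any array, summed to 4.38 to 5.58, with Cd4 and Cd3e the brightest. Between genotypes at 10 weeks Cd3g had -1.27 and Cd3d -0.56, while Cd3e and Cd4 had 0.17 and 0.18. At 4 weeks these genes ran from -0.31 to 0.14. The part of osteoclasts and B cells in the differences of Tnfsf11, Tnfrsf11a and Csf1r was not tested.

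Osteoblast and osteocyte markers summed in WT to 174 at 10 weeks and 456 at 4 weeks and in Mkx-KO to 275 and 325, with 7 of 7 well above background except on the Mkx-KO array at 4 weeks, where 6 of 7 were. Bglap and Ibsp were the brightest. Between genotypes 6 of 7 were positive at 10 weeks, where Ibsp and Mepe had 1.58 and 0.95, Dmp1 0.04 and Alpl -0.33. At 4 weeks 2 of 6 were positive, and Ibsp, Mepe and Alpl had -1.13, -1.50 and 0.29. Ligament fibroblast markers had a narrow span of 763 to 860, with Postn and Dcn the brightest. Single genes differed more. Scx had 0.71 for genotype at 10 weeks, where 3 of the 6 were positive. With age Scx had -1.22 in WT and -0.81 in Mkx-KO, Tnmd -0.81 and -0.90, and Fmod -0.32 and -0.93. With age 1 of the 6 was positive in WT and 2 in Mkx-KO, beside 40.5% and 37.7% of all genes. Stratified epithelium markers, 7 of 7 well above background, summed in WT to 829 at 10 weeks and 329 at 4 weeks and in Mkx-KO to 456 and 583. The epithelial sum and the Il34 level were both lower in Mkx-KO at 10 weeks and both higher at 10 than at 4 weeks in WT. At 4 weeks Il34 was lower in Mkx-KO where the epithelial sum was higher, and in Mkx-KO Il34 was higher at 10 weeks where that sum was lower. Krt14, Krt6a and Krt5 were the brightest of the epithelial markers, and single markers differed from the sum. For age in Mkx-KO 2 of the 7 were positive, with Dsg3 at 0.75. Trp63 ran from 0.06 to 0.10 over the genotype and age comparisons on its brighter probe and from -0.75 to 1.34 on the other. Central neuron markers summed to 26.2 to 34.0, odontoblast and ameloblast markers to 19.5 to 55.5. Within these sums single genes differed widely. For Mkx-KO minus WT at 4 weeks Gad1, Slc32a1 and Syt1 had -3.86, -4.54 and -4.58, and at 10 weeks they had 2.66, 2.15 and 1.13. Snap25, the brightest neuron marker, had 0.20 at 4 weeks on its brighter probe and -2.92 on the other. Amelx had -6.66 at 4 weeks, while Ambn and Odam had 0.13 and 0.85. No sum but that of the olfactory markers was below 1 on any array.

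**Figure D5:**
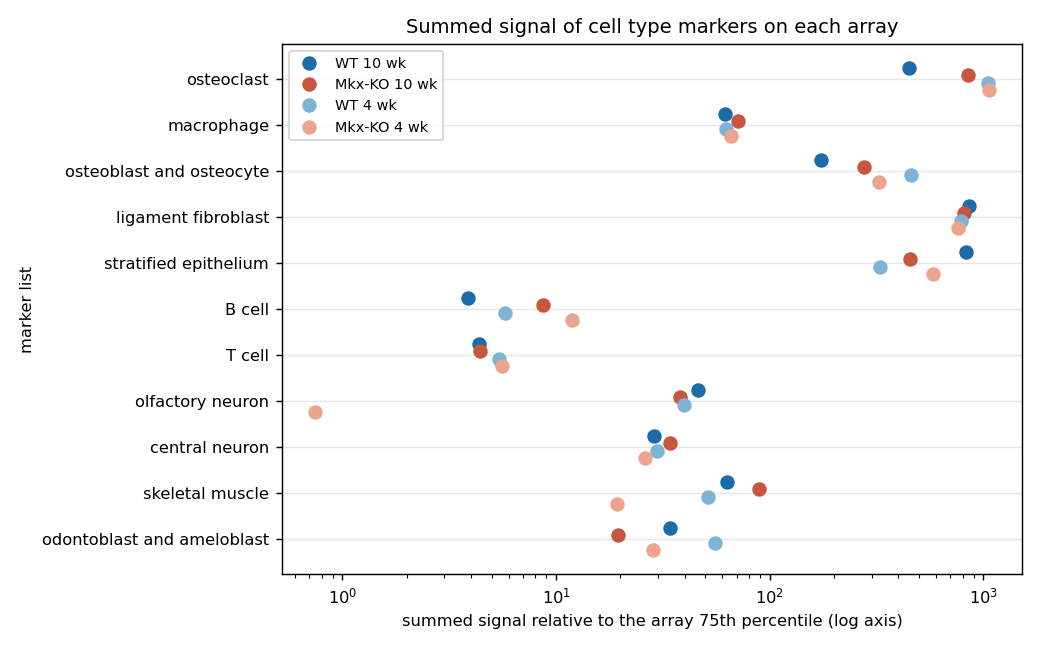
Summed signal of each marker list relative to the array's 75th percentile, on a log axis, for the 4 arrays. Osteoclast markers lie lowest in WT at 10 weeks (449) and B cell markers lie higher in Mkx-KO at both ages, while olfactory neuron markers are at 0.748 on the Mkx-KO array at 4 weeks.

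Genes with the pattern most like that of a member were sought for the 2 members with the widest range, by the root mean square difference of array-centred levels over the 4 arrays among 15504 genes. Nearest to Il34 were Hook1, Akr1c14 and Cfb, at 0.087, 0.11 and 0.12 log2 units, and 1 gene lay within 0.1. Hook1 had genotype differences of -0.54 and -0.74 and age differences of 1.5 in WT and 1.70 in Mkx-KO, and 0.81 and 0.54 on its second probe. Nearest to Csf1r were Aym1, Fblim1 and Cit, at 0.015, 0.018 and 0.021, and 201 genes lay within 0.1. Fblim1 had -0.77 for genotype at 10 weeks on its second probe, against 0.49 on the brighter. Each likeness is over 4 arrays.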

How the data were processed

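Gene expression was measured on 4 single-colour Agilent arrays, 1 per group, labelled with Cy3. The deposited scan data hold spot intensity from Agilent Feature Extraction 11.5.1.1, per the submitters' processing notes, and the processed signal is already corrected for background by that software, per the file headers. The authors' value table holds intensity too: each column is a constant multiple of that array's processed signal (in WT 1.81 at 10 and 1.64 at 4 weeks, in Mkx-KO 2.08 and 1.54), with column medians of 87.03 and 62.23 in WT and 86.98 and 56.82 in Mkx-KO, and is not on a log scale. How the factors were chosen is not given in the sources used here, and genes were not centred.

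Of 59305 non-control spots per array, 60 to 77 marked as outliers were left out, none was saturated, and 61.8% to 66.6% were well above background. Signals were log2 transformed, spots of a probe averaged, and the array's 75th percentile over probes subtracted. Of 56605 probes, 32994 matched 22911 genes by RefSeq accession; positions on the array's mm9 design were not used. A gene counted as measured in a pair when well above background on both arrays, and as called at 2-fold. A single pair has no p-value. The additive fit of genotype and age was made with limma 3.58.1 (R 4.3.3) on genes whose probe passed background on 2 or more arrays, and it was tested on simulated data. Python 3.11.15 ran the rest, with numpy 2.4.6 and pandas 2.3.3, and plots were drawn in matplotlib 3.10.9.

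The members, gene lists and markers were chosen with earlier results of these data known, and 1 B cell marker is not reported here. Named genes were the 8 members, Mkx, in each list the 4 genes of largest average genotype difference in size, if well above background on all 4 arrays, and the 3 genes most like each of the 2 members of widest range. Traf6, Nfatc1, Csf3, Ifng, Egf and the markers were named outside that rule, Traf6, Nfatc1, Csf3, Ifng and Egf after their values were seen. Alternatives were normexp (offset 50) for the background, quantile normalization, median centring, the authors' value table, the mean over probes, other filters, thresholds of 1.5-fold and 3-fold, a limit of 2 technical errors, and for limma no covariate, a trend in eBayes and other filters.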

Additional observations from a re-analysis of the deposited data

Results flagged for a closer look

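Ccl2 differed with age in opposite directions in the genotypes: it was 1.17 log2 units higher at 10 than at 4 weeks in WT and -0.47 in Mkx-KO, each beyond 2 technical errors. Under the authors' scaling these were 1.52 and -0.18, the latter within 1 technical error. Sfrp1 differed between genotypes in opposite directions at the ages, with -0.45 for Mkx-KO minus WT at 10 weeks and 0.52 at 4 weeks, each beyond 2 technical errors. With 1 array per group, neither difference between the comparisons was tested.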

How the results depend on the processing

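No paired analysis was possible because each group has 1 array and the labels give no replicate numbers. Members called at 2-fold were 0, 0, 1 and 1 in the comparisons of genotype at 10 weeks, genotype at 4 weeks, age in WT and age in Mkx-KO. A threshold of 1.5-fold gave 2, 1, 3 and 3, and 3-fold gave 0 for age in WT. For age over both genotypes limma called 0 genes, 5 with no covariate and 31 with normexp background. Of 780 differences of named genes under the main alternatives 640 moved by less than the technical error and 140 by more, and 0 of those past 2-fold changed sign; of 88 under the second brightest probe, an alternative chosen after seeing the data, 46 moved by less and 42 by more. Tnfsf11, Il34 and Tnfrsf11b kept their direction for genotype at both ages under all 6 ways of scaling, background and probe choice: Tnfsf11 ran from 0.59 to 0.67 and from 0.44 to 0.52, and Il34 from -0.63 to -0.57 and from -0.97 to -0.82. Csf1 at 10 weeks was 0.15 with the mean over probes, and Pth1r at 4 weeks -0.04 with quantile normalization. The authors' value table moved the median of all genes with age from -0.10 to 0.26 in WT and from -0.15 to 0.14 in Mkx-KO, and the share of 2-fold calls that were higher from 56.6% to 82.9% and from 62.0% to 85.4%. There Tnfsf11, Tnfrsf11a, Csf1 and Pth1r in Mkx-KO were 0.06, 0.23, 0.09 and 0.03 with age. The cause was not tested. Normexp cut the genes called at 2-fold for genotype at 10 weeks from 171 higher and 225 lower to 54 and 96, at 4 weeks from 74 and 519 to 27 and 232, with age in WT from 806 and 617 to 416 and 289, and in Mkx-KO from 979 and 601 to 476 and 339. Il34 stayed past 2-fold with age in both genotypes under all 6, at 1.18 or more in WT and 1.51 or more in Mkx-KO. The precision is limited by the number of arrays.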
